A study of Mus musculus with 139 samples.

Results

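In the mouse embryonic stem cell line examined here, 6646 regions that carried the histone mark H3K27ac lay away from protein-coding genes and were listed as peaks both before and 4 h after depletion of the RNA exosome subunit EXOSC2. They are 40.9% of the 16239 peaks in the 0 h list. Each of them overlapped a peak of the 4 h list, which holds 20449 peaks, by at least 1 bp and lay more than 2 kb from both ends of every protein-coding locus of the expression table. They are called kept distal peaks below. Their presence at both times and their distance from genes were what selected them, so neither is a result: the members were selected on the listed positions of the peaks at 0 and 4 h. The values at the edges of the selection are given once: the members nearest to a locus end lay 2002, 2008 and 2011 bp away, and the peaks just excluded lay 1999, 1998 and 1991 bp away. The smallest overlap with a 4 h peak was 34 bp, 3 members overlapped by less than 100 bp, and the median member had 96.6% of its width covered. Among the 1268 distal 0 h peaks with no overlap, 165 ended within 500 bp of a 4 h peak, the closest at 5 bp.

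H3K27ac is acetylation of lysine on the tail of histone H3. It marks promoters and active enhancers, the regulatory stretches that bind transcription factors and act on genes at a distance, and in embryonic stem cells dense groups of such regions lie beside genes of the pluripotency network. Enhancers are themselves transcribed into short-lived RNA, and the RNA exosome is the 3′-to-5′ ribonuclease complex that degrades such transcripts in the nucleus.

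All samples came from AID-FBEXOSC2 embryonic stem cells (ESCs), in which EXOSC2 carries an auxin-inducible degron, grown in serum with LIF on gelatin. The auxin IAA at 0.5 mM removes the protein, and 0 h samples received none. Because the degron acts on protein, the RNA level of Exosc2 does not check the depletion. Peaks were compared at 0 and 4 h. The labels name 2 sets of 0 h H3K27ac samples, and the 0 h list does not say which set it was made from. RNA was compared in total RNA at 0, 4 and 20 h of IAA, in nascent RNA labelled for 10 min with the uridine analogue EU at 0, 1, 2 and 4 h, in the insoluble chromatin fraction (chrRNP) at 0 and 4 h, and in polyadenylated RNA of cells without IAA that were kept in LIF (RAD0) or had LIF withdrawn and 2 µM retinoic acid added for 24 h (RAD1). Each group had 2 libraries, and nothing in the labels says that they came from separate cultures, so the p-values measure the spread between those libraries, which may be technical. The labels do not say whether the line is 1 clone.

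The ESC markers were all present, 8 of 8 at a mean of at least 1 FPKM (fragments per kilobase of transcript, scaled to library size) at every time, with a summed level of 1717 to 1774 FPKM at 0 h, 1246 to 1520 at 4 h and 476 to 523 at 20 h. The summed level of 6 trophoblast markers was at most 12.9 FPKM at 0 h, 9.59 to 9.61 at 4 h and 77.1 to 77.7 at 20 h, led by Krt18, with Elf5 below 0.1, and its part in the 20 h results was not tested. Endoderm markers summed to at most 2.54 FPKM and fibroblast markers to at most 7.72. In bulk RNA, fewer cells of a type and less RNA per cell cannot be told apart. The summed FPKM of the ESC libraries ran from 323866 to 492306, and the library of 4 h replicate 1 stood apart in that AY036118 alone took 15.2% of its sum. In total RNA the median gene was lower at 4 h than at 0 h by a log2 difference of -0.31, which became 0.01 once the libraries were rescaled to a common median ratio. Counts below are on the values as deposited, and rescaled counts stand beside those of nearest genes, gene lists and noncoding loci in total RNA.

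A small subset of the kept distal peaks held the start of an annotated RNA. In the RefSeq table for GRCm38.p6 (mm10), 459 members (6.91%, exact 95% binomial interval 6.31 to 7.54) held a start of any gene, 258 of them (3.88%) a noncoding one and 221 (3.33%) a coding one. The same share was 57.6% in the 7601 kept peaks near coding genes and 1.84% in the 5004 distal peaks found at 4 h alone. The starts inside 4 members are shown because they lie in the largest annotated cluster of members, at noncoding loci whose RNA is described below, or in a cluster that spans a noncoding gene. Each window runs from 250 bases before to 50 bases after the RefSeq start, 5′ to 3′ on the strand of the gene, and capitals mark ATGCAAA, the core of the octamer bound by OCT factors. The windows are Tsc22d1 at chr14:76488186-76488485 on the plus strand, Snhg20 at chr11:117076533-117076832 on the plus strand, 2900060B14Rik at chr1:118459216-118459515 on the minus strand and D230017M19Rik at chr1:72243743-72244042 on the plus strand.
Tsc22d1: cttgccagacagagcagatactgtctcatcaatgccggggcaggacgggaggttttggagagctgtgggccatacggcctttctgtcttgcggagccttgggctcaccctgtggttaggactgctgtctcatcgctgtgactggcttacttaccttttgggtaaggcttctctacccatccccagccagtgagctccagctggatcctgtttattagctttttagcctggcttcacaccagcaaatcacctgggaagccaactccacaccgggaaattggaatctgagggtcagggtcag
Snhg20: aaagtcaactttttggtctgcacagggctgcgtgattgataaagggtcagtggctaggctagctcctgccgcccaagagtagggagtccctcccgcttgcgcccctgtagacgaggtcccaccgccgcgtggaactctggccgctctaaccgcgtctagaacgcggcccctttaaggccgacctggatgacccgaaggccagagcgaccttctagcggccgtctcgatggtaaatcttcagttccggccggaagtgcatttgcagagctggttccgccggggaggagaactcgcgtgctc
2900060B14Rik: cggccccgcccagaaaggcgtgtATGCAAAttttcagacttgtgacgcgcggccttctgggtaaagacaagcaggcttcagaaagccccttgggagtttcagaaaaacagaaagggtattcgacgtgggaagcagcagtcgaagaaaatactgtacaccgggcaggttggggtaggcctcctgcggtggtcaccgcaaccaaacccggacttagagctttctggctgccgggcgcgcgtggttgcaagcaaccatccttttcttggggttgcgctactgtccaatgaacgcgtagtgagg
D230017M19Rik: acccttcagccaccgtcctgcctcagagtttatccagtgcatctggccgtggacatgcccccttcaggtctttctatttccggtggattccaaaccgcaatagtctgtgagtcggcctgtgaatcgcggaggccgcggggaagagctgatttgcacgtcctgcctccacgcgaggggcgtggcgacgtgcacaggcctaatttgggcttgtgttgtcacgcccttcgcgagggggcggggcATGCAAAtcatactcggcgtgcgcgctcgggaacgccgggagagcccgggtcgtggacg

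The motif began at base 24 of the 2900060B14Rik window and at base 242 of the D230017M19Rik window, counted from 1 at the 5′ end, and was not in the other two on the printed strand. ATGCAAA, read on both strands, was in 7.53% of the 425 start windows that lay inside kept distal peaks, in 4.63% of all 32817 windows and in 2.43% of the 4317 windows inside kept gene-proximal peaks. For noncoding genes alone the shares were 7.50% of 240 windows and 5.35% of all noncoding windows. The other motifs searched on both strands were CATTGTT in 3.53% against 3.78% of all windows, AAGGTCA in 4.71% against 4.72%, GGGTGTG in 8.94% against 7.95%, TGANTCA in 6.12% against 7.81% and ACATGTC in 1.41% against 2.01%. The windows also differ in base composition: the median GC content was 55.3% inside kept distal peaks, 52.7% over all windows and 62.0% inside gene-proximal peaks. These shares are descriptions, since overlapping windows of one gene are not independent.

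Members also lay on or beside microRNA genes. The hairpins of 10 microRNAs (Mir210, Mir3063, Mir6352, Mir6516, Mir7011, Mir7229, Mir760, Mir7671, Mir8120 and Mirlet7i) were inside a member. A hairpin was held by 0.150% of members, against 0.579% of kept gene-proximal peaks. Of the largest clusters of members, 1 ended 4157 bp before the hairpin of Mir290a. Mir290a is the first of the Mir290 to Mir295 group, which is the dominant microRNA cluster of mouse ESCs. The mature RNAs of 2 of the hairpins inside members and of 4 of that group are shown, with the seed (bases 2 to 8) in capitals.
mmu-let-7i-5p: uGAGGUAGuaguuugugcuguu
mmu-miR-210-3p: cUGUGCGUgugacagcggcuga
mmu-miR-290a-3p: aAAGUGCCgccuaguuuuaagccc
mmu-miR-291a-3p: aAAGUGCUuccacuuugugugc
mmu-miR-294-3p: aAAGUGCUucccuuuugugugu
mmu-miR-295-3p: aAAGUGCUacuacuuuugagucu

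The seeds of miR-291a-3p, miR-294-3p and miR-295-3p were identical, and that of miR-290a-3p was not the same. Small RNAs were not analysed here, so these sequences carry no level.

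Of the members, 2685 (40.4%) lay inside a coding locus, more than 2 kb from either of its ends. This share was 48.3% of the distal peaks lost by 4 h and 53.2% of the distal peaks found at 4 h alone. A long noncoding locus was overlapped by 798 members (12.0%, interval 11.2 to 12.8), against 8.99% of lost and 8.07% of 4 h-only distal peaks. The 3881 members outside coding loci that could be assigned a nearest gene lay at a median of 24528 bp from it (quartiles 9259 and 66621 bp), with 72.9% beyond 10 kb and 17.2% beyond 100 kb. No gene was assigned to 22 members on unplaced contigs or to 58 members in a stretch of chromosome 8 (119876995 to 124369049) whose loci were not used here, leaving 6566. The distance of these members from genes beside them was therefore not judged. By chromosome, kept distal peaks were 33.1% of the 0 h peaks of chromosomes 7 and 19, 48.3% of those of chromosome 18, and 13 of 18 peaks on chromosome Y. Placement was judged on the loci of the expression table, and 254 members (3.82%) lay within 2 kb of an end of a coding gene in RefSeq.

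Being kept is part of the selection, so its shares are given as descriptions. Of 7914 distal 0 h peaks 84.0% (83.2 to 84.8) overlapped a 4 h peak, against 91.3% (90.7 to 91.9) of 8325 gene-proximal peaks. Among distal peaks the kept share was larger in wider peaks, over 4 width classes of near equal size, from 68.3% at 344 to 772 bp through 81.4% and 89.5% to 96.7% at 1607 to 3765 bp. Peaks alone within 12500 bp were kept in 81.0%, pairs in 87.9% and peaks in clusters of 3 or more in 87.6%. With 1 list per time there is no replicate check on any peak value, and these intervals cover counting error only.

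Kept distal peaks had a median width of 1191 bp (quartiles 838 and 1704, range 345 to 3765), close to the 1203 bp of kept gene-proximal peaks. The upper tail was heavier: 14.4% of kept distal and 8.79% of gene-proximal peaks spanned at least 2 kb. Lost distal peaks had a median of 774.5 bp at 0 h. The 4 h-only distal peaks had a median of 1056 bp.

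Most members widened slightly between the lists. Of the members, 5967 (89.8%) matched 1 peak at each time, 150 were split among several 4 h peaks and 534 shared a 4 h peak with another 0 h peak. Over the 5967 pairs the median width was 1209 bp at 0 h and 1333 bp at 4 h, and the median change was +50 bp (95% interval of the median 43 to 56, quartiles -89 and 237). A wider 4 h peak was seen in 3613 pairs (60.5%) and a narrower one in 2337 (39.2%). The gene-proximal pairs gave +43 bp (37 to 49) with 58.8% wider. Of 4 equal classes by 0 h width, the narrowest (345 to 843 bp) changed by +101 bp (88 to 111) with 75.02% wider. The middle classes changed by +61.5 bp (45 to 79) and +54 bp (41 to 69), and the widest (1710 to 3765 bp) by -25 bp (-38 to -6) with 45.9% wider. In gene-proximal pairs the narrowest class gave +73 bp and the widest -5 bp. The 0 h width that ranks the pairs also enters their change, and its part in this slope was not tested.

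**Figure D1:**
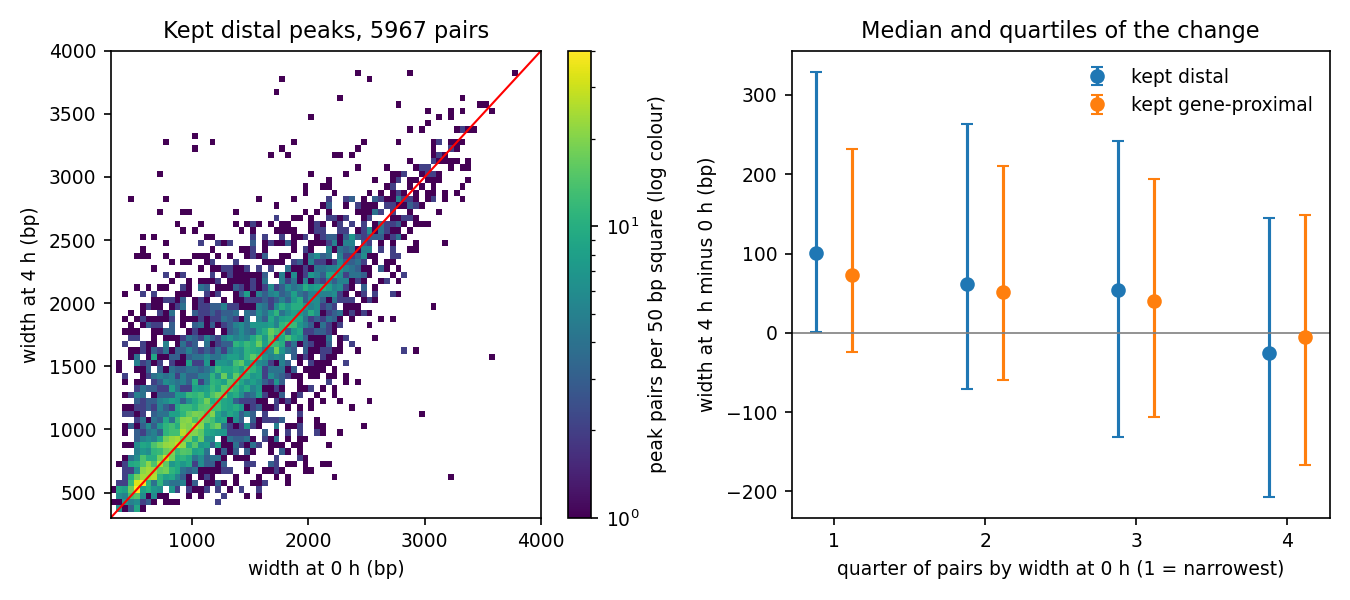
Widths of kept distal peaks at 0 and 4 h. Left, the number of 1-to-1 pairs by width in the 0 h list (x, bp) and the 4 h list (y, bp), with a red line of equal width; right, the median change (y, bp) with quartiles by class of 0 h width for distal and gene-proximal pairs. The narrowest distal class sits at +101 bp and the widest at -25 bp.

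Few members changed by a large factor. In 263 pairs (4.41%) the 4 h peak was at least 2 times as wide and in 85 (1.42%) at most 0.5 times as wide, against 152 and 57 of the 7223 gene-proximal pairs. The largest gains were chr15:89178233-89178988 by Dennd6b (755 to 3269 bp), chr1:11151760-11152250 in Prex2 (490 to 2812 bp), chr12:101016543-101017568 in Ccdc88c (1025 to 3347 bp) and chr2:125255867-125256576 in Dut (709 to 3012 bp). The largest losses were chr15:55265808-55269024 near Deptor (3216 to 640 bp), chr3:101161862-101165429 near Ptgfrn (3567 to 1593 bp), chr2:30250420-30253411 in Gm28035 (2991 to 1130 bp) and chr13:37451920-37454133 near Ly86 (2213 to 621 bp). The widest member, chr17:39843097-39846862, ended just before the noncoding locus Gm42418 and measured 3812 bp at 4 h. Members alone within 12500 bp changed by +64.5 bp, those in pairs by +38 bp and those in clusters of 3 or more by +36 bp (20 to 47). Pairs inside coding loci gave +62 bp, pairs outside them +45 bp and those that held a RefSeq start +33 bp (7 to 69).

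Set beside RNA, the 73 paired members whose nearest gene rose in total RNA at 4 h (51 genes) had a median width change of +170 bp (quartiles 19 and 363, 79.5% wider). The 1329 members near genes that fell (689 genes) gave +41 bp with 60.2% wider. The 2889 near genes that passed no test gave +51 bp with 59.3% wider. Read the other way, the median log2 change of the nearest gene was nearly flat over 4 equal classes of width change, at -0.37, -0.38, -0.37 and -0.35 from the most narrowed to the most widened. These are descriptions: members of one gene share its value, and peak width has no replicate.

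Many members stood close together. With members joined across gaps of up to 12500 bp, 1016 of them (15.3%, 14.4 to 16.2) fell in 280 clusters of 3 or more, 898 pairs were formed and 3834 members stood alone. The same rule gave 7.59% (7.01 to 8.21) of kept gene-proximal peaks and 1.68% of 4 h-only distal peaks. At a gap of 5 kb the shares were 5.40, 2.18 and 0.26%, and at 25 kb 26.7, 19.2 and 4.20%. All 7914 distal 0 h peaks, kept or lost, gave larger shares than the kept ones: 5.99% at 5 kb, 17.2% at 12500 bp and 29.6% at 25 kb. Sets of different size and spread over the genome were compared, and no test was made. Of the 4 h-only distal peaks, 837 (16.7%) lay within 12500 bp of a member, and of the lost distal peaks 371 (29.3%) did.

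**Figure D2:**
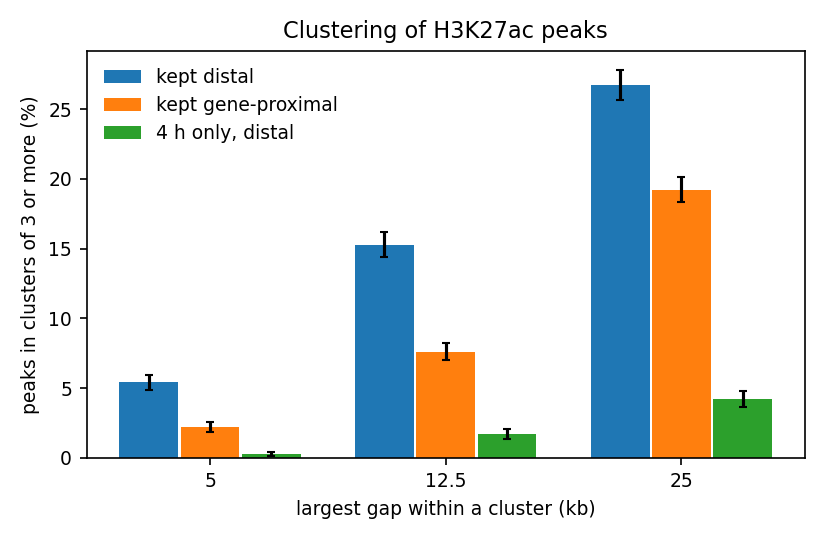
Share of peaks in clusters of 3 or more (y, percent) at gaps of 5 kb, 12500 bp and 25 kb (x) for kept distal, kept gene-proximal and 4 h-only distal peaks; bars are shares and lines are exact 95% binomial intervals for counting error. Of the 3 sets shown, kept distal peaks are highest at each gap, 15.3% against 7.59% and 1.68% at 12500 bp.

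The 8 largest clusters held 7 to 12 members each. The cluster with most members, 12, was on an unplaced contig (chrUn_JH584304), where no loci were used. Around Tsc22d1, a leucine-zipper protein induced by TGF-beta signalling, 9 members at chr14:76466439-76518163 summed to 9461 bp at 0 h. The 9 peaks of the 4 h list across this span summed to 13351 bp, the largest difference among the 8 largest clusters. That sum takes in 1 peak found at 4 h alone, which overlaps no member. The 4 h peaks listed for the members were 616, 2165, 1445, 2483, 2205, 791 and 2213 bp wide, some of them shared by neighbouring members. These and the 4 h-only peak do not make up all 9, so the 4 h sum is not one over the listed peaks. Between 6430573F11Rik and Dlc1, a tumour suppressor, 9 members at chr8:36527558-36560534 summed to 10100 and 10307 bp. Inside Rnf220, a ubiquitin ligase, 8 members at chr4:117330037-117381477 summed to 12543 and 12669 bp. The 8 members by Mtcl1 and Rab12 (chr17:66438660-66485610) went from 11481 to 12842 bp, and the 7 by Klf5 (chr14:99323987-99356695) from 10141 to 10172 bp. The 7 between Nlrp12 and AU018091 next to the Mir290 group (chr7:3184327-3214468) went from 7487 to 9132 bp. The 7 by Erdr1 and Gm21860 (chrY:90766469-90793854) summed to 4881 bp at 0 h. Across that span 9 peaks of the 4 h list summed to 7739 bp, more than the peaks matched to the 7 members. Those matched peaks were 862, 642, 927, 1102, 588, 499 and 650 bp wide, against 856, 557, 924, 819, 575, 501 and 649 bp at 0 h.

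Of 44 clusters of at least 5 members with a nearest gene, 5 (11.4%) lay nearest to a gene of a list of 35 pluripotency genes taken up below, Klf5 among them, and 39 did not. The share was 1.72% of 232 clusters of 3 or 4 members, 1.70% of 881 pairs and 0.814% of 3810 members that stood alone. A cluster with more members can have more nearest genes, and no test was made. Prdm14, a repressor that holds ESCs in the naive state, had 6 members at chr1:13073714-13105546 (8983 to 9312 bp). Sox2, the partner of OCT4, had 6 at chr3:34734292-34761051 (7868 to 8160 bp). Klf4 had 5 at chr4:55463162-55479338 (6441 to 6640 bp). Zfp281 had 5 at chr1:136690513-136708104, over the noncoding Platr22, and this was the cluster of those named here whose summed width was lower at 4 h, 5287 against 6312 bp. At Snhg20 and Sec14l1, 5 members at chr11:117076341-117092530 went from 5545 to 5794 bp.

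Each member was assigned to the coding locus that contained it or lay nearest, which gave 3661 genes. Nearest is a rule of distance and says nothing of which gene an enhancer acts on. At 4 h of IAA, 2494 of these genes passed the filter on low values in total RNA, and 53 rose and 724 fell by limma at an adjusted p below 0.05. The background over all coding genes tested was 2.17% higher and 23.9% lower, and over all genes 4.47% and 21.2%. The median log2 change was -0.35, against -0.33 over coding genes and -0.31 over all genes. With rescaled libraries the counts were 110 higher and 95 lower, with a median of -0.02. The call rests on single libraries: the count changed, 777, became 19 when replicate 1 of 0 h was left out and 33 when replicate 2 was. Leaving out replicate 1 of 4 h, the library with much AY036118, gave 94 and leaving out replicate 2 of 4 h gave 1227.

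The share of genes that fell was larger where more members were nearest. It was 22.3% of 7866 tested coding genes with no member, 26.8% of 1406 with 1, 32.7% of 565 with 2, 30.1% of 366 with 3 or 4, and 33.1% of 157 with 5 or more. After rescaling the same shares were 1.72, 2.70, 5.31, 4.92 and 5.73%. As deposited, other distal peaks gave like shares: 26.7% of genes nearest to kept distal peaks only fell, and 26.5% of those nearest to lost ones only. The share was 24.7% for 4 h-only distal peaks only and 21.7% for genes nearest to none of the 3 classes. Genes with more members may also differ in level. Each gene was therefore placed in 1 of 3 groups of equal size by its mean log2(value + 1) over the libraries, treated ones included. In the highest group 21.9% of genes with no member and 32.7% with at least 3 fell, in the middle group 29.7 and 36.5%, and in the lowest 15.6 and 22.7%. Genes with 1 or 2 members gave 28.5% in the highest group, 38.0% in the middle one, above the share with at least 3, and 18.5% in the lowest.

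At 20 h, 176 nearest genes rose and 1867 fell (background of coding genes 7.61 and 72.9%). The median was -0.83, against -0.79 over coding genes and -0.76 over all genes. Rescaling gave 698 and 854 with a median of -0.06. Here the level groups did not point one way: the share that fell went from 88.3% with no member to 81.1% with at least 3 in the highest group, but from 76.0 to 81.4% in the middle and from 53.2 to 65.3% in the lowest.

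Few nearest genes were called in nascent RNA. No nearest gene of 1546 tested was called at 1 or 2 h of IAA (45 and 105 had an unadjusted p below 0.05), where the background over all genes was 0.0451 and 0.0113% higher and 0.0% lower. At 4 h, 25 rose and 9 fell (background of coding genes 1.68 and 0.309%), with a median of -0.08. Over coding genes the median was -0.04 and over all genes -0.03. The median was -0.03 with no member and -0.13 with 3 or 4 and with 5 or more. None of the 34 calls was made when any 1 library of that contrast was left out. In simulated data the test recovered 34% of log2 changes of 1 at 1 h, 38% at 2 h and 40% at 4 h. Those changes were placed only in genes with a mean level above 5 RPKM. In 0 h replicate 1 the median was 0.387 RPKM for genes with 1 member and 1.47 for those with 5 or more. Recovery at such levels was not simulated, so low counts of calls do not show that levels stayed the same.

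In the chromatin fraction at 4 h, 168 nearest genes rose and 25 fell of 2581 (background of coding genes 6.38 and 0.58%). The median was 0.14, against 0.19 over coding genes and 0.21 over all genes. The median declined with the number of members, 0.21, 0.15, 0.13, 0.12 and 0.07 from no member to 5 or more. Rescaling turned the balance, to 163 higher and 350 lower. The share lower was then 7.90% with no member and 21.3% with 5 or more. The count of changed genes was 985 without chrRNP 0 h replicate 2 and 80 without chrRNP 4 h replicate 2, against 193 with every library.

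The retinoic acid contrast used cells without IAA, so it asks how genes near these regions behave when ESCs leave self-renewal. Of 2788 nearest genes tested, 949 rose and 731 fell (background of coding genes 32.7 and 21.3%). The median was 0.08, against 0.10 over coding genes and 0.08 over all genes. The share that fell climbed with the number of members, 19.8% with none, 23.2% with 1, 27.2% with 2, 31.8% with 3 or 4 and 38.8% with 5 or more. Rescaled, it went from 25.3 to 43.6%. It was also higher with at least 3 members than with none within each level group, 46.8 against 36.5% in the highest, 23.8 against 16.9% in the middle and 22.1 against 7.01% in the lowest. The share that rose was higher too with at least 3 members in the highest group (29.4 against 21.6%) and the middle one (39.8 against 33.0%). In the lowest group it was lower, 25.4 against 41.8%.

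**Figure D3:**
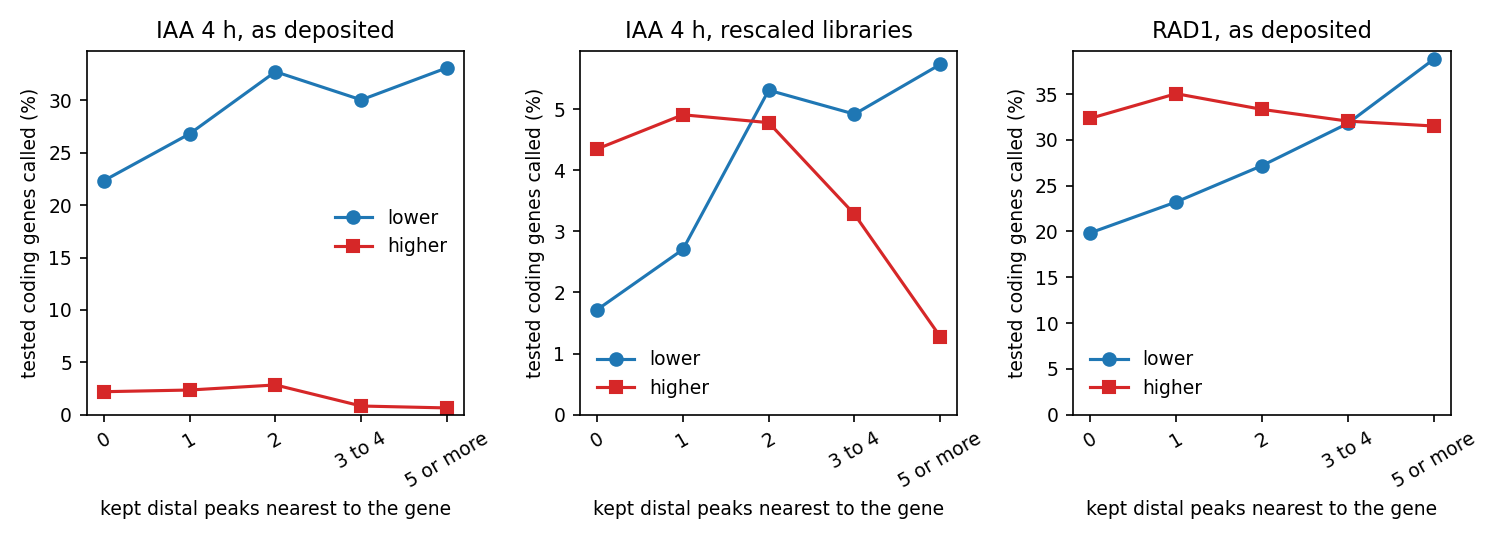
Share of tested coding genes called lower (blue) or higher (red) by limma (y, percent, a different range in each panel) against the number of kept distal peaks nearest to the gene (x), for total RNA at 4 h of IAA as deposited and with rescaled libraries, and for polyadenylated RNA of RAD1 against RAD0. In the RAD1 panel the share lower runs from 19.8% with no peak to 38.8% with 5 or more; in the rescaled panel it runs from 1.72 to 5.73%.

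The 10 genes with most members were Tsc22d1 and Etl4 with 13, Sgk1 and Tbl1xr1 with 12, Tns3, Epb41l4a and Rnf220 with 11, and Dync1h1, Pitpnc1 and Macf1 with 10. Sgk1, a kinase downstream of PI3K and glucocorticoid signalling, stood at 162 and 152 FPKM at 0 h, 68.3 and 87.5 at 4 h, and 27.6 and 26.2 at 20 h. Its groups did not overlap, and it fell by 1.01 ± 0.15 (log2, SE, n = 2) at 4 h (limma adjusted p = 0.0149) and by 2.50 ± 0.15 at 20 h (limma adjusted p = 8.19e-05). With retinoic acid Sgk1 went from 208 and 207 to 21.0 and 18.8 FPKM, a fall of 3.32. Tsc22d1 stood at 200.1 and 177 FPKM, then 118 and 136, then 218 and 193. It fell by 0.57 ± 0.14 at 4 h (limma adjusted p = 0.0377, 0.159 with rescaled libraries) and was not called at 20 h, with a difference of 0.12 from 0 h (limma adjusted p = 0.464). With rescaled libraries Tsc22d1 was higher at 20 h than at 0 h, by 1.08 (limma adjusted p = 2.13e-04). Tbl1xr1, a subunit of the NCoR corepressor, fell by 1.79 at 20 h, from 15.4 and 14.3 to 3.66 and 3.49 FPKM. Tns3, an adaptor at focal adhesions, fell by 1.55 at 20 h and by 1.11 with retinoic acid. Etl4 rose by 1.20 with retinoic acid, from 14.7 and 15.0 to 35.3 and 35.4 FPKM. Dync1h1, the heavy chain of cytoplasmic dynein, was not called at 4 or 20 h (29.6 and 26.7 FPKM at 0 h, 25.9 and 26.1 at 20 h), but with rescaled libraries it was higher at 20 h by 0.82 (limma adjusted p = 2.56e-04).

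Beside the other large clusters, Dlc1 stood at 22.7 and 22.05 FPKM at 0 h, 10.8 and 11.6 at 4 h and 6.22 and 6.58 at 20 h. It fell at both times, by 0.94 ± 0.11 at 4 h (limma adjusted p = 0.00892). AU018091, on the far side of the cluster beside the Mir290 group, stood at 39.8 and 37.8 FPKM, then 26.5 and 28.0, then 23.6 and 22.6, a fall of 0.49 ± 0.11 at 4 h (limma adjusted p = 0.0297, 0.327 rescaled). Nlrp12, on the other side and nearest to 9 members, was at or below 0.14 FPKM in each of the 6 ESC libraries. 6430573F11Rik, Erdr1 and Gm21860 were at or below 0.373 FPKM in those libraries and were not tested.

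A list of 35 genes of naive and core pluripotency had 27 that were nearest to 102 members. In total RNA 14 of the 27 fell at 4 h and none rose, with a median of -0.46 (the 8 genes of the list with no member gave 4 lower and -0.42). Over all coding genes tested 23.9% fell, with a median of -0.33. With rescaled libraries 4 of 27 fell and the median was -0.09 (2.22% of all coding genes fell). None fell when replicate 1 of 0 h was left out and 1 when replicate 2 was. Leaving out replicate 1 of 4 h gave 2, and leaving out replicate 2 gave 20. At 20 h all 27 fell, with a median of -1.75 (8 of 8 without members, -2.04), and 22 fell and 1 rose with rescaled libraries. Over all coding genes 72.9% fell at 20 h, with a median of -0.79, and 29.6% fell with rescaled libraries. With retinoic acid 24 fell and 2 rose, with a median of -1.89 (21.3 and 32.7% of all coding genes). In nascent RNA at 4 h 1 of 25 fell, and in chromatin 1 of 27 (9 when rescaled). Of all coding genes 0.309% fell in nascent RNA and 0.58% in chromatin (9.25% when rescaled).

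Among these regulators Nanog, a homeodomain factor of the naive state with 3 members, stood at 100.2 and 96.3 FPKM at 0 h, 49.8 and 59.7 at 4 h, and 11.1 and 9.63 at 20 h, and fell by 0.84 ± 0.14 at 4 h (limma adjusted p = 0.0184) and by 3.13 at 20 h. Prdm14 stood at 4.53 and 4.17 FPKM, then 1.47 and 1.60, then 0.218 and 0.237. It fell by 1.08 ± 0.13 at 4 h (limma adjusted p = 0.00953), and was the gene of the list called lower in chromatin, by 0.59 (limma adjusted p = 0.00204). Zfp42 (REX1), a marker of naive ESCs with 2 members, fell by 1.01 ± 0.15 at 4 h, from 84.8 and 75.2 to 35.0 and 43.6 FPKM (limma adjusted p = 0.0142). For each of these genes no library at 4 h reached the range of the 0 h libraries. Their 4 h calls ended without 0 h replicate 1, at adjusted p = 0.111, 0.065 and 0.0873.

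The KLF factors bind GC-rich promoters and enhancers of the naive network. Klf4 (6 members, the nearest 11.6 kb away) stood at 21.6 and 20.9 FPKM, then 11.7 and 14.2, then 3.55 and 3.72, and fell by 0.68 ± 0.13 at 4 h (limma adjusted p = 0.0222, 0.0595 rescaled). Klf5 (8 members) stood at 45.9 and 41.0, then 26.2 and 30.9, then 29.6 and 33.9, and fell by 0.59 ± 0.14 at 4 h (limma adjusted p = 0.034, 0.216 rescaled). Its 20 h value, lower as deposited, was higher after rescaling. Sox2 (8 members) stood at 154 and 129 FPKM, then 99.0 and 128, then 75.6 and 69.1. Its 4 h libraries reached close to the 0 h range and it was not called (-0.32 ± 0.17, limma adjusted p = 0.176). It fell by 0.95 at 20 h (limma adjusted p = 0.00227), a call that ended with rescaled libraries (adjusted p = 0.996).

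Of the other factors, Mycn (7 members) stood at 51.8 and 45.4 FPKM, 27.2 and 32.6 at 4 h and 8.25 and 7.57 at 20 h, and fell by 0.69 at 4 h (limma adjusted p = 0.0253). Zfp281, a zinc finger factor that restrains Nanog, stood at 40.4 and 37.9, then 20.7 and 27.02, then 20.6 and 21.5, and fell by 0.70 at 4 h (limma adjusted p = 0.0275). Esrrb, an orphan nuclear receptor with 4 members inside its locus, stood at 78.9 and 79.3 FPKM, then 53.8 and 60.4, then 22.6 and 21.3. It fell by 0.46 at 4 h (limma adjusted p = 0.0377, 0.448 rescaled) and with retinoic acid by 3.22, from 166 and 185 to 17.1 and 18.7. Tbx3 (6 members) went the other way with retinoic acid and rose by 0.91, from 26.1 and 27.3 to 51.8 and 49.97 FPKM. Lin28a, an RNA-binding protein that blocks let-7 maturation, was the gene of the list that fell in nascent RNA at 4 h, by 1.12, from 5.42 and 5.66 to 2.28 and 1.75 RPKM (limma adjusted p = 0.0297).

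**Figure D4:**
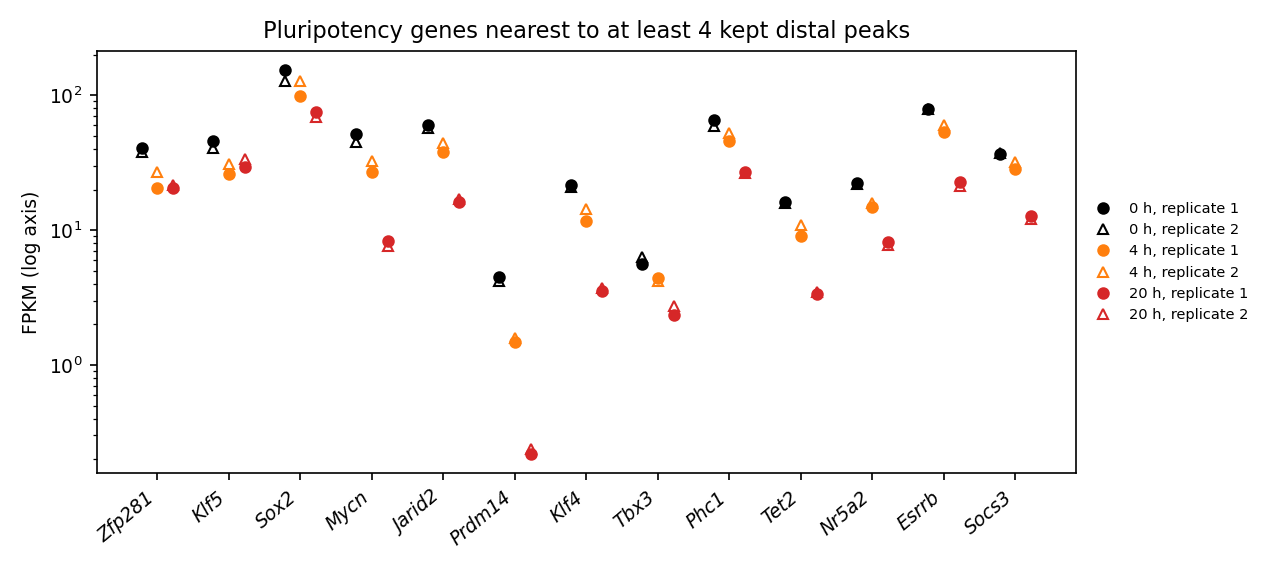
FPKM in total RNA (y, log axis) of 13 pluripotency genes nearest to at least 4 kept distal peaks (x), 1 point per library: circles are replicate 1 and triangles replicate 2, black 0 h, orange 4 h and red 20 h of IAA. Prdm14 drops furthest, from 4.53 and 4.17 to 0.218 and 0.237 FPKM, and for Sox2 the 4 h points reach close to those of 0 h.

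A list of genes of the BMP, Nodal and FGF pathways, which cooperate with or oppose LIF in ESCs, had 15 of its 19 measured genes nearest to 32 members. At 4 h 11 of the 15 fell and none rose, with a median of -0.55 (23.9% of all coding genes were lower). The 4 genes of the list with no member gave 2 lower and 1 higher, with a median of -0.49. With rescaled libraries 6 fell and 1 rose, and 3 fell when either 0 h library was left out and 4 when replicate 1 of 4 h was. At 20 h 13 fell and 1 rose, which became 6 and 6 on rescaling. Of all coding genes 72.9% fell and 7.61% rose at 20 h, and 29.6 and 27.2% when rescaled. With retinoic acid 7 rose and 7 fell (32.7 and 21.3% of all coding genes).

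Ligands, inhibitors and targets of these pathways were among the genes that fell. Lefty1, a secreted inhibitor of Nodal, stood at 17.1 and 14.4 FPKM at 0 h, 4.08 and 6.10 at 4 h and 3.57 and 3.35 at 20 h, and fell by 1.47 ± 0.18 at 4 h (limma adjusted p = 0.0101). Lefty2 beside it stood at 10.3 and 12.4, then 4.06 and 5.12, then 1.43 and 1.51, and fell by 1.15 ± 0.15 (limma adjusted p = 0.0113). With retinoic acid Lefty1 rose by 4.75, from 19.3 and 16.6 to 488 and 529.6 FPKM, and Lefty2 by 1.64. Bmp4, the BMP ligand, fell by 0.82 at 4 h, from 35.7 and 31.1 to 16.5 and 20.48 FPKM (limma adjusted p = 0.0196), and by 0.65 in chromatin. The feedback inhibitor Spry4, induced by FGF signalling and with 4 members the nearest of which lay 30.6 kb away, stood at 25.03 and 24.2, then 10.6 and 11.2, then 11.9 and 12.9, and fell by 1.10 ± 0.11 at 4 h (limma adjusted p = 0.00608). Id2, a BMP target that blocks basic helix-loop-helix factors, stood at 24.3 and 21.2, then 11.4 and 10.4, then 12.54 and 12.8, and fell by 1.00 ± 0.12 (limma adjusted p = 0.0099). Of these 5 genes, Spry4 kept its 4 h call under each of the 9 alternatives tried.

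Targets of p53, the stress-response factor, moved the other way. Of 30 listed genes 12 were nearest to 19 members, and at 4 h 7 of these rose and 2 fell, with a median of 1.01. Of all coding genes 2.17% rose and 23.9% fell. The 18 with no member gave 9 higher of 15 tested and a median of 1.00, so the targets with and without members had like medians. In chromatin 9 of the 12 rose, and 12 of the 16 tested without members (6.38% of all coding genes). In nascent RNA at 4 h 1 of 11 rose, with a median of 1.57, against 7 of 12 without members, with a median of 1.36. Of all coding genes 1.68% rose there. At 2 h none of the 11 was called, but 8 had an unadjusted p below 0.05 and the median was 0.94. Plk2, a polo-like kinase, stood at 4.82 and 3.88 FPKM at 0 h, 29.9 and 32.8 at 4 h and 46.9 and 43.3 at 20 h, and rose by 2.60 ± 0.13 (limma adjusted p = 6.75e-04). Its nascent RNA was 0.539 and 0.837 RPKM at 0 h, 0.326 and 1.03 at 1 h, 1.71 and 3.19 at 2 h, and 13.97 and 15.9 at 4 h, a rise of 3.24 at 4 h (limma adjusted p = 0.0238). Its 2 members are far off, the nearer at 202 kb.

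Btg2, an antiproliferative cofactor of mRNA deadenylation, stood at 6.47 and 4.65, then 36.0 and 39.0, then 37.3 and 35.2 FPKM, and rose by 2.56 ± 0.16 at 4 h (limma adjusted p = 0.00119). Cdkn1a (p21), the cell cycle inhibitor, stood at 0.980 and 1.18, then 6.53 and 4.43, then 9.69 and 9.80, and rose by 1.62 ± 0.17 (limma adjusted p = 0.00694). Phlda3, an inhibitor of AKT, rose by 1.32, from 22.4 and 20.2 to 49.4 and 60.5 FPKM (limma adjusted p = 0.00692). Ddit4 and Sesn2, which restrain mTORC1, rose by 1.52 and 1.05. The members nearest to these genes did not change in width alike. The single member of Phlda3 was 362 bp wide at 0 h and overlapped a 4 h peak of 1482 bp, and the members of Sesn2 went from 1309 and 735 to 2450 and 1510 bp. That of Ddit4 went from 887 to 1108 bp, that of Btg2 from 1156 to 1144, those of Cdkn1a from 944 and 1503 to 892 and 1703, and those of Plk2 from 617 and 524 to 635 and 533.

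Few genes of early differentiation had members. Of 18 listed, 7 were nearest to 14 members and 4 of them passed the filter in ESC total RNA. At 4 h 2 fell (none with rescaled libraries) and at 20 h 4. Of all coding genes 23.9% fell at 4 h and 72.9% at 20 h. With retinoic acid 4 rose and 3 fell (32.7 and 21.3% of all coding genes). Foxd3, a factor of the transition out of the naive state with 3 members, fell by 3.21 at 20 h, from 13.2 and 13.1 to 0.975 and 0.190 FPKM, and by 3.75 with retinoic acid.

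Outside the lists, the genes with at least 2 members that changed most at 4 h included Pim1, a kinase induced by LIF and STAT3 with 6 members, which stood at 50.1 and 44.3 FPKM, then 17.4 and 19.5, then 24.99 and 27.9, and fell by 1.31 ± 0.13 (limma adjusted p = 0.00603). Map3k1, a kinase upstream of JNK, fell by 1.11, from 5.81 and 5.79 to 2.11 and 2.204 FPKM. The zinc finger gene Zfp710 fell by 1.20 in total RNA and by 0.72 in nascent RNA. Rap2b, a small GTPase, rose by 1.00, from 2.58 and 2.24 to 5.69 and 5.96 FPKM. The 4 h calls in total RNA of Pim1, Map3k1, Zfp710 and Rap2b, and of Plk2, Btg2, Ddit4 and Phlda3 above, held under each of the 9 alternatives tried. At 20 h Inhbb, a subunit of activin B with 9 members, fell by 3.36, from 18.6 and 17.8 to 0.706 and 1.05 FPKM, and Mov10, an RNA helicase, fell by 3.36. In nascent RNA Mdm4, a p53 inhibitor with 2 members inside its locus, rose by 1.69, from 6.29 and 5.53 to 21.5 and 21.1 RPKM (limma adjusted p = 0.0192).

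With retinoic acid the largest falls among genes with at least 2 members were Tdh, the threonine dehydrogenase that mouse ESCs depend on, from 214 and 230.1 to 4.82 and 6.54 FPKM (a fall of 5.07), Foxd3, Socs3, a feedback inhibitor of LIF signalling, from 40.1 and 38.8 to 2.57 and 2.30 (a fall of 3.56), Mycn (a fall of 3.52) and Inhbb (a fall of 3.48). Large rises were seen for Fam159a (3.01), Sox4 (2.90), Pmp22 (2.82) and Egln3 (2.65). Fam159a was listed at 0 in both RAD0 libraries, so its value depends on the pseudocount.

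Long noncoding loci overlapped by members were called higher more than lower at 4 h. The 798 members touched 680 of 12237 listed noncoding loci (5.56%), and 165 of the 680 passed the filter in ESC total RNA. At 4 h 65 rose and 11 fell (39.4 and 6.67%), with a median of 0.43 (background of all noncoding loci 33.8 and 7.0%, median 0.33). The 242 loci tested that were overlapped by gene-proximal peaks but by no member gave 159 higher and 4 lower (65.7 and 1.65%), with a median of 0.97. The 376 overlapped by no peak at either time gave 40 and 43, with a median of -0.07. With rescaled libraries the members' loci gave 63 and 2 with a median of 0.60, the gene-proximal loci 131 and 1, and the loci with no peak 32 and 9 with a median of 0.14. By class, 37 of 93 lincRNA loci, 14 of 29 antisense loci, 7 of 30 processed transcripts and 7 of 13 unclassified (TEC) loci rose. The 76 loci changed became 23 and 25 when replicates 1 and 2 of 0 h were left out in turn, and 35 when replicate 1 of 4 h was. The 35 tested loci with a start window inside a member gave 8 higher and 2 lower, and the 130 others 57 and 9. The labels do not say how strand was counted, so an antisense locus and its partner cannot be told apart.

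At 20 h 66 of the 165 rose and 53 fell (40.0 and 32.1%, background 40.1 and 21.4%). The counts were 166 and 17 of the 242 gene-proximal loci and 75 and 101 of the 376 with no peak. With rescaled libraries these became 88 and 25 with a median of 0.76 (0.15 as deposited), 196 and 8, and 135 and 22. In chromatin at 4 h 85 of 251 rose and 5 fell (background 25.5 and 2.94%), with a median of 0.56. The count of changed loci was 58 without chrRNP 0 h replicate 1 and 49 without chrRNP 4 h replicate 2, against 90. In nascent RNA none of 158 was called at 1 or 2 h (15 and 22 had an unadjusted p below 0.05). At 4 h 4 rose and none fell (background 1.17 and 0.39%): Gm13067, Pvt1, 6030442K20Rik and D230017M19Rik. With retinoic acid 60 of 233 were called (background 20.7% of all noncoding loci), 20 of them higher and 40 lower, against 147 higher and 96 lower over all 1172 noncoding loci tested and 47 and 16 of 350 gene-proximal ones.

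The loci with the smallest p-values in total RNA at 4 h show the size of the change. Gm13067 (ENSMUSG00000086665.1, chr4:150049013-150056976), a lincRNA, stood at 1.18 and 0.867 FPKM at 0 h, 15.3 and 19.6 at 4 h, and 33.9 and 33.2 at 20 h, and rose by 3.18 ± 0.15 at 4 h (limma adjusted p = 6.07e-04). Its nascent RNA rose too, by 1.97 ± 0.25, from 1.09 and 1.31 to 7.01 and 8.18 RPKM (limma adjusted p = 0.0336), and its chromatin RNA went from 1.26 and 0.793 to 27.5 and 25.1 FPKM. Snhg20 (ENSMUSG00000086859.3, chr11:117076790-117078955), a host gene of small nucleolar RNA whose start window is printed above, stood at 19.4 and 16.5, then 87.4 and 95.9, then 94.2 and 78.1 FPKM, and rose by 2.29 ± 0.15 at 4 h (limma adjusted p = 0.00132). Its nascent RNA was not called (9.60 and 8.02 at 0 h, 5.64 and 7.17 RPKM at 4 h, -0.41 ± 0.17, limma adjusted p = 0.288). 2900060B14Rik (ENSMUSG00000107722.1, chr1:118458652-118459267), antisense to another gene and with ATGCAAA in its start window, stood at 2.93 and 1.91, then 16.1 and 18.5, then 7.39 and 5.96 FPKM, and rose by 2.43 ± 0.18 at 4 h (limma adjusted p = 0.00227). In each case the 4 h libraries were above the 0 h libraries with no overlap.

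The same held for 5 further loci. 4932422M17Rik stood at 0.556 and 0.444 FPKM at 0 h and 3.69 and 4.01 at 4 h (1.69, limma adjusted p = 0.0018). Gm37352 stood at 4.12 and 5.43, then 15.4 and 16.6, and at 20 h at 50.8 and 55.3 (1.57 at 4 h, limma adjusted p = 0.00527). 5031425E22Rik stood at 7.17 and 7.34, then 16.3 and 18.0 (1.13, limma adjusted p = 0.00599). 1810019N24Rik rose by 1.67, from 0.335 and 0.563 to 3.40 and 3.804 FPKM, and D730045B01Rik by 1.46, from 0.276 and 0.355 to 2.48 and 2.73. The 4 h calls of these 8 loci in total RNA held under each of the 9 alternatives tried. The nascent call of Gm13067 did not: no noncoding locus overlapped by members was called in nascent RNA at 4 h without any 1 library.

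**Figure D5:**
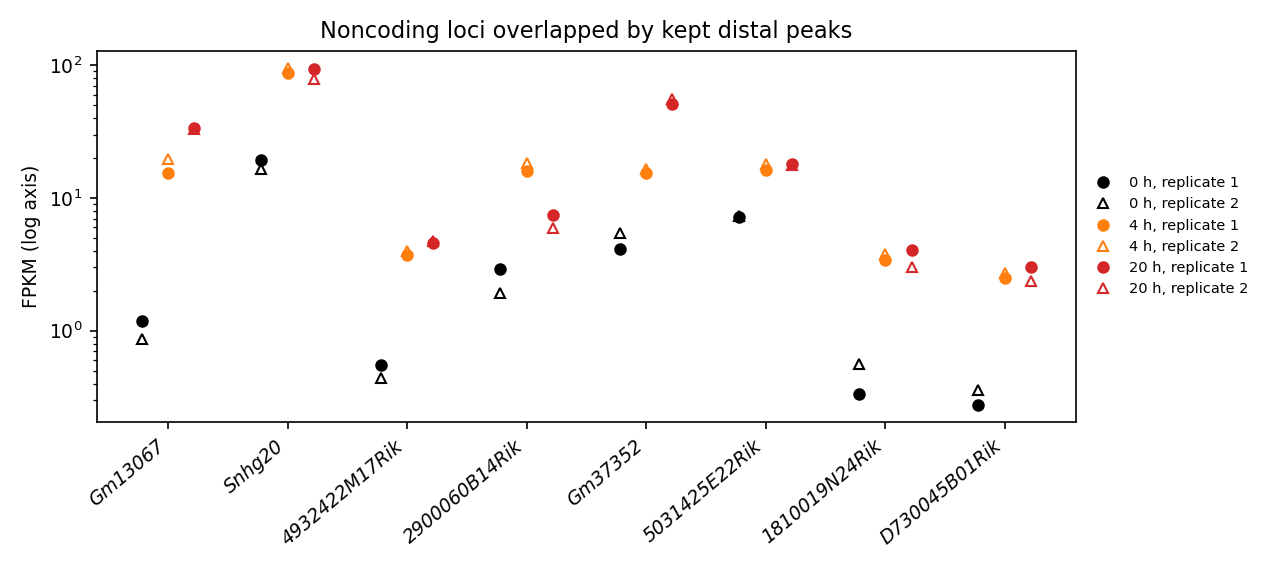
FPKM in total RNA (y, log axis) of the 8 noncoding loci overlapped by kept distal peaks with the smallest p at 4 h (x), 1 point per library: circles are replicate 1 and triangles replicate 2, black 0 h, orange 4 h and red 20 h of IAA. In all 8 the 4 h points lie above the 0 h points; Gm13067 goes from 1.18 and 0.867 to 15.3 and 19.6 FPKM and 2900060B14Rik is lower at 20 h than at 4 h.

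Neat1, Pvt1, Gm42418 and Lncenc1 were chosen after their values were seen. Neat1, the scaffold RNA of paraspeckles, stood at 50.2 and 42.5 FPKM, then 116 and 125, then 247 and 271, and rose by 1.36 ± 0.14 at 4 h (limma adjusted p = 0.00633), while its nascent RNA was not called (-0.28, limma adjusted p = 0.229). In chromatin it went from 68.0 and 72.1 to 467 and 460.0 FPKM. Pvt1, the long noncoding gene beside Myc, with 3 members, rose in total RNA by 0.83, from 4.80 and 4.28 to 8.004 and 9.81 FPKM, and in nascent RNA by 1.01, from 2.51 and 2.65 to 6.33 and 6.04 RPKM. Gm42418, beside the widest member, fell by 1.87 at 4 h, from 1899.6 and 1884 to 621 and 429 FPKM. It was listed at 0 in both 20 h libraries, where Gm26917 took the largest share of the sum. In each nascent library Gm42418 took the largest share, 21.5 and 23.6% at 0 h and 16.1 and 16.5% at 4 h. How far read assignment at Gm42418 shaped its values was not tested, so its fall may not be one of an ordinary transcript. Lncenc1, a noncoding RNA of naive ESCs, stood at 60.7 and 57.7, then 41.2 and 47.4, and was not called at 4 h (limma adjusted p = 0.0503), and fell at 20 h to 19.8 and 20.9 FPKM.

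The Platr loci, noncoding RNAs named for their association with pluripotency, were often touched by members. Of 28 listed, 18 (64.3%) were overlapped by a kept distal peak and none by gene-proximal peaks alone, against 5.56% of all noncoding loci. These loci are named for their expression in ESCs, so the share describes where they lie. At 4 h 7 were tested and 2 rose, a share below the 33.8% of all noncoding loci: Platr27, from 6.37 and 9.40 to 26.9 and 35.3 FPKM (1.86, limma adjusted p = 0.00755), and Platr31 (0.99), both chosen after their values were seen. At 20 h 1 rose and 2 fell, Platr10 among them, from 60.9 and 47.1 to 12.4 and 9.68 FPKM. With retinoic acid 1 rose and 6 fell of 11 tested, with a median of -0.91, and Platr10 fell by 1.67. Platr22, which 3 members overlap, stood at 1.63 and 1.88 FPKM at 0 h and 1.42 and 2.50 at 4 h and was not called (limma adjusted p = 0.767).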

How the data were processed

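H3K27ac peaks were aligned with Bowtie2 2.2.6 and called with MACS2 on mm10, per the submitters' processing notes; the deposited lists hold positions only, 1 list per time, and do not say whether replicates were pooled. Widths are end minus start as listed. The deposited FPKM values come from Cufflinks 2.0.2 after TopHat2 2.0.11, and the deposited nascent RPKM values from Trim Galore, TopHat2 and bedtools, per the submitters' processing notes. FPKM does not give the depth. Nascent RPKM steps implied 5351768 to 11296204 reads per library (read as whole within 0.05 for 94.8 to 96.2% of values). All 42 libraries of the 4 tables were used, 2 per group.

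Peaks were compared with Python 3.11.15, numpy 2.4.6, pandas 2.3.3 and scipy 1.17.1. RNA was tested two-sided with limma 3.58.1 (R 4.3.3) on log2(value + 1), which understates changes of low genes, with trend and every group of a table in the model, over genes at 1 or more in at least 2 libraries, with Benjamini-Hochberg adjusted p below 0.05. On simulated data it recovered 66% of log2 changes of 1 in ESC total RNA at 4 h and 61% at 20 h (12461 genes). In nascent RNA at 1, 2 and 4 h it recovered 34, 38 and 40% (8876 genes), in chromatin 46% (14069) and with retinoic acid 89% (15408). The changes were placed only in genes with a mean level above 5 FPKM or RPKM. No shift between libraries was simulated, so recovery in lower genes or in libraries of unlike scale is not known. Named genes are those with most members, those beside the largest clusters, the 5 largest changes per direction and contrast among genes with at least 2 members and a mean of at least 5, and, of each list, genes with at least 3 members or the 4 smallest p. A gene that this rule names is not reported here. Members, lists and tests were chosen with earlier results of these data known. Alternatives were another pseudocount, no filter, no trend, rescaled libraries, a replicate block, leaving out each library, and other gaps and overlaps. RefSeq symbols matched 74% of the coding loci. Figures were drawn with matplotlib 3.10.9.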

Additional observations from a re-analysis of the deposited data

How the results depend on the processing

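With members required to lie outside coding loci as well, 3961 were found. The median width change was 72 bp with split and merged peaks summed and 41 bp in pairs that overlapped by most of both peaks. The share in clusters was 5.40% at 5 kb, 26.7% at 25 kb and 17.2% over all distal 0 h peaks. For nearest genes the count changed at 4 h in total RNA, 777, became 32 without the filter, 280 with the replicate block, 205 with rescaled libraries and 19 to 1227 when 1 library was left out. In nascent RNA it became 2 at 2 h without the filter, and at 4 h 13 without the filter and 0 with the replicate block or without any 1 library. In chromatin it became 513 rescaled and 80 to 985 on leaving out a library. For noncoding loci the count was 15 without the filter and 23 to 65 on leaving out a library at 4 h in total RNA, 0 in nascent RNA at 4 h with the replicate block or without a library, and 49 to 109 in chromatin without a library. The leave-one-out ranges were 1762 to 1842 nearest genes at 20 h (2043 with all), 1358 to 1441 with retinoic acid (1680 with all) and 102 to 105 noncoding loci at 20 h (119 with all). The cause of these shifts was not tested, apart from the smaller number of libraries.

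At 20 h, 9 single genes reversed with rescaled libraries: Rnf220 (0.058), Klf5 (0.49), AU018091 (0.21), Pim1 (0.12), Il17rd (0.27), Zfp281 (0.065), Id2 (0.11), Smad7 (0.18) and Spry2 (0.52). Of the other values of single genes under alternatives, 4149 kept direction and call, 291 lost the call and 88 gained it. The replicate numbers are shared across groups, but with 2 pairs the deviations of same-numbered libraries (correlations from -0.026 to 0.145) do not establish pairing. Peak values rest on 1 list per time, and depth limits FPKM values to an unknown degree.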
